A study of Mus musculus with 9 samples.

Results

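The 46 interferon-stimulated effector genes described here were taken by name from the 52780 genes of a count table of mouse C2C12 cells, a line of myoblasts that fuse into multinucleated myotubes when serum is reduced. The names cover the IFIT, ISG15, Mx, IRG, GBP, IFITM and antiviral PARP families and single effectors such as Rsad2 and Bst2, and leave out OAS genes, RNA sensors and antigen-processing genes. All 46 were found under 1 gene identifier each. Gene positions below are those of the GENCODE annotation on GRCm38, and promoter stretches are placed by RefSeq start sites. The 9 polyA RNA-seq libraries came from cells at day 4 of differentiation in 3 groups of 3 samples: controls (si Ctrl) and the knockdowns si mH2A1.1 and si mH2A1.2. MacroH2A1.1 and macroH2A1.2 are splice isoforms of the histone variant macroH2A1, made from the gene H2afy, and each was knocked down by siRNA delivered before and during differentiation. The transfection protocol, with 10 nM of siRNA, is attached to every sample. The labels call the si Ctrl cells wild type and give no sequence for their siRNA, and which siRNA against each isoform was used for the sequenced cells is not given in the sources used here. The study describes the samples of a group as independent biological replicates.

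Interferons are secreted when a cell senses foreign or misplaced nucleic acid. Type I interferon binds the receptor chains IFNAR1 and IFNAR2, and the kinases JAK1 and TYK2 then activate a transcription factor complex that contains STAT2 and IRF9 and binds the interferon-stimulated response element (ISRE) in promoters. Type II interferon acts through a different, palindromic element. The genes switched on this way bind viral RNA, tether virions, attack pathogen vacuoles, starve viruses of nucleotides or feed back on the pathway. In skeletal muscle the programme is best known from inflammatory myopathies such as dermatomyositis.

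Total counts per library ran from 36924252 to 42223108, and 3 counts corresponded to between 0.0691 and 0.0826 CPM, the count scaled to the size of its library. H2afy, counted over both isoforms together, stood at 56.3, 62.4 and 61 CPM in si Ctrl, 38.8, 30 and 30.9 in si mH2A1.1 and 46.8, 47.2 and 43.2 in si mH2A1.2. It was called lower with si mH2A1.1 (log2 fold change -0.85 ± 0.11, adjusted p = 0.00331) and not with si mH2A1.2 (-0.39 ± 0.11, adjusted p = 0.108), and gene-level counts cannot tell the isoforms apart. The labels name the cells myoblasts in one field and myotubes in another: the 7 myotube markers examined, Myh3, Ttn and Acta1 among them, summed to 17900 to 26600 CPM in si Ctrl, 16800 to 20500 in si mH2A1.1 and 15200 to 19400 in si mH2A1.2, and none of the 7 was called in si mH2A1.1 against si Ctrl. In that comparison Myog and Myh3 lay wholly below si Ctrl (0.632- and 0.689-fold), Ckm and Des wholly above (1.36- and 1.37-fold), and the rest overlapped. With si mH2A1.2, edgeR called none of the 7, and Tnnt3 met the same cutoffs in DESeq2 (log2 fold change -0.96, adjusted p = 1.93e-05).

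The members' promoters were searched for the core letters of both elements. Of the 34 members with a RefSeq promoter window (GRCm38.p6, 250 bases before to 50 after the start site), 18 (52.9%) held the ISRE core GAAANNGAAA on either strand, against 1079 of 27025 genes with a window (3.99%). The STAT core TTCNNNGAA was present in 9 of the 34 (26.5%) and in 9.55% of all genes, and the 2 searches could share bases. Of the members that rose with si mH2A1.1, 14 of the 23 with a window held an ISRE core, and of those not called 4 of 11 did. No window was matched for Usp18, Mx1, Mx2, Iigp1, Gbp4, Gbp6, Parp9, Parp14, Ifi204, Ifi27, Rtp4 and Tor3a. The stretches of 30 bases below hold the nearest core upstream of the start site, with the bases of the core in capitals, overlapping copies joined; a core on the opposite strand reads TTTCNNTTTC. Lgals9, Irgm1, Bst2 and Igtp are the most abundant members that rose and hold a core, and the others, picked after their values were seen, show a triple copy (Isg15), a shared one (Ifit3 and Ifit3b), strong rises from low levels (Gbp3, Ddx60) and a core in a member that did not rise (Ifitm2).
Lgals9, chr11:78984960-78984989, minus strand, 65 to 36 bases before the start site: tgacatcagcTTTCTTTTTCtctagacact
Irgm1, chr11:48871428-48871457, minus strand, 37 to 8 bases before the start site: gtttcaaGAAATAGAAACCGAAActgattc
Bst2, chr8:71537580-71537609, minus strand, 137 to 108 bases before the start site: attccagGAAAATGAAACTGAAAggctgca
Igtp, chr11:58199512-58199541, plus strand, 44 to 15 bases before the start site: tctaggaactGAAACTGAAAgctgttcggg
Isg15, chr4:156200871-156200900, minus strand, 82 to 53 bases before the start site: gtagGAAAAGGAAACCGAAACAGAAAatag
Ifit3, chr19:34583397-34583426, plus strand, 132 to 103 bases before the start site: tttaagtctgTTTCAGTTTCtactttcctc
Ifit3b, chr19:34607793-34607822, plus strand, 164 to 135 bases before the start site: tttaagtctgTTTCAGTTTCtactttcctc
Gbp3, chr3:142559992-142560021, plus strand, 52 to 23 bases before the start site: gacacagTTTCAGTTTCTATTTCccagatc
Ddx60, chr8:61928057-61928086, plus strand, 30 to 1 bases before the start site: ggagcagaagaGAAACCGAAActatccttc
Ifitm2, chr7:140955988-140956017, minus strand, 56 to 27 bases before the start site: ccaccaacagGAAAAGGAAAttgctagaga
Isg15 held 3 overlapping cores in 22 bases, and Irgm1, Bst2 and Gbp3 held 2 overlapping copies in 16. The stretches of Ifit3 and Ifit3b were identical. Distances are from the RefSeq start sites, which can differ from the GENCODE gene ends: the Irgm1 stretch lies inside the gene as GENCODE places it. A match describes these letters in the window and was not tested as a bound site.

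**Figure D1:**
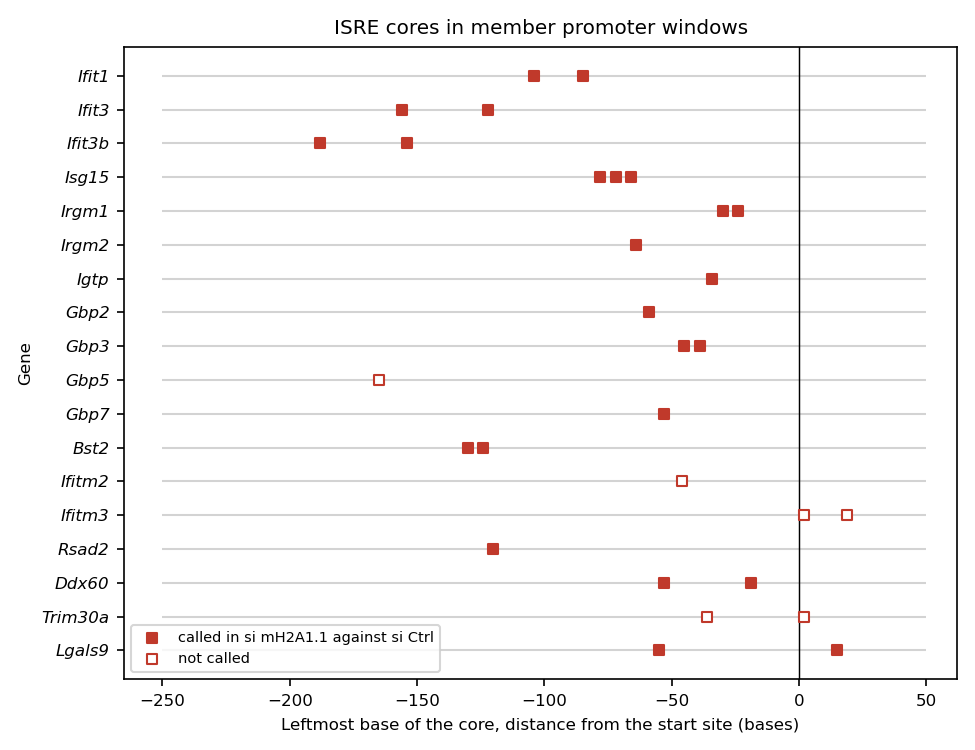
Position of each ISRE core in the promoter windows of the 18 members that held one. The horizontal axis is the distance in bases of the core's leftmost base from the start site (negative is upstream), each grey line is the window of 300 bases, filled squares are members called in si mH2A1.1 against si Ctrl and open squares members not called; the squares of Trim30a come from 2 windows, each measured from its own start site. All 14 called members held at least 1 core upstream of the start site.

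The first question was whether these genes differed between si mH2A1.1 and si Ctrl. The groups differ in the siRNA delivered, so loss of the isoform and other effects of an siRNA cannot be told apart here. With si mH2A1.1, 28 of the 46 members (60.9%) rose and none fell: a call needed an adjusted p under 0.01 in edgeR's quasi-likelihood test and a log2 fold change beyond 0.8 in either direction. Among the 19545 genes tested, 1.31% were called higher and 0.491% lower. The median log2 fold change over the members was 2.46, against -0.01 over all genes tested, and 43 of the 46 values were above 0. In 42 members every si mH2A1.1 sample lay above every si Ctrl sample, in 2 (Ifitm2 and Isg20) every one lay below, and in 2 (Ifitm1 and Ifi204) the groups overlapped, against 17.5% of all genes wholly above and 16.7% wholly below. All 46 had an unadjusted p under 0.05, as did 29.6% of all genes. In bulk RNA, more cells that transcribe a gene and more RNA per cell cannot be told apart. Usp18, Gbp5 and Cmpk2 passed the filter on low counts only because of the si mH2A1.1 samples, where they were high; of the other 43 members, 26 rose.

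The number of calls depended on single libraries and on the tool. It was 6 without si Ctrl replicate 1, 0 without si Ctrl replicate 2 and 0 without si Ctrl replicate 3. It was 8 without si mH2A1.1 replicate 1, 11 without si mH2A1.1 replicate 3 and 15 without si mH2A1.2 replicate 2. It was 12 when si mH2A1.2 was left out of the fit altogether. Calls over all genes fell as well, from 256 higher to 65, 26, 28, 64, 47, 138 and 155 in these fits, in that order. These fits tested 18889 to 20208 genes. Between 43 and 46 members had an unadjusted p under 0.05 whichever of the 9 samples was left out, as did 20.7% to 31.6% of all genes. The median of the members stayed between 1.96 and 2.72 in these 9 fits. DESeq2 called 37 members higher on all samples (1.69% of its 37466 genes) and 33 to 39 with a sample left out, and edgeR called 37 at an adjusted p of 0.05 or less (3.76% of all genes). Calls of single members below are from the edgeR fit without a replicate term, unless stated. With that term edgeR called 35 members and 489 of all genes higher, adding Gbp4, Gbp5, Gbp6, Iigp1, Rtp4, Trim30a and Xaf1.

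Markers of other cells were read beside this rise. Of the 6 leukocyte markers, 2 were tested and Cd68 rose with si mH2A1.1 (2.73, 3.62 and 2.58 CPM in si Ctrl and 10.6, 5.73 and 11.1 in si mH2A1.1, with a log2 fold change of 1.62 ± 0.25 (3.07-fold), adjusted p = 0.00565), which brought the sum of the list from between 3.99 and 4.96 CPM in si Ctrl to between 7.11 and 12.9; in si mH2A1.2 it was 4.2 to 4.43. Cd68 encodes a lysosomal protein that is most abundant in macrophages. Itgam, an integrin chain of myeloid cells and the other marker tested, had 34 to 50 counts in si Ctrl, 39 to 54 in si mH2A1.1 and 28 to 32 in si mH2A1.2, and was not called with si mH2A1.1 (log2 fold change 0.09 ± 0.23, adjusted p = 0.834). The 4 that were not tested had at most 16 counts in a library: Adgre1 had 0 counts in 8 libraries and 1 in the other, Ptprc 1 to 9, Csf1r 4 to 16 and Lyz2 0 to 8. The 3 endothelial markers summed to between 0.83 and 1.41 CPM over all libraries. The part of Cd68 in the rise of the members was not tested.

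**Figure D2:**
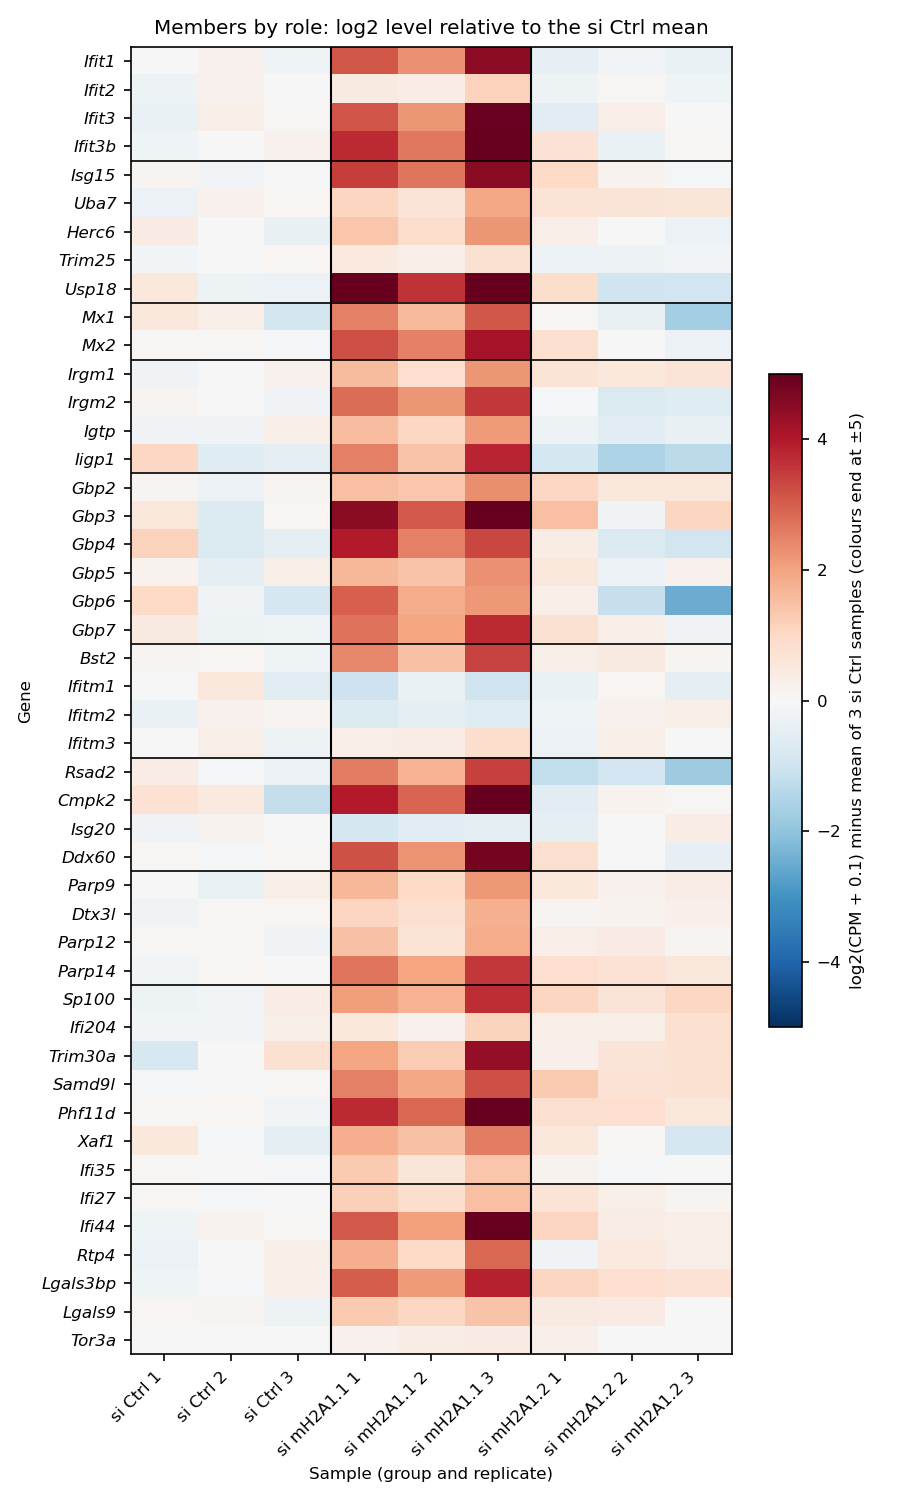
Level of each member in each sample. Rows are genes, ordered by role with lines between roles, columns are the 9 samples, and colour is log2(CPM + 0.1) minus the mean of the 3 si Ctrl samples, with the scale ending at 5 in either direction. The si mH2A1.1 columns are red in 43 of the 46 rows on average, palest in replicate 2 and darkest in replicate 3, and the si mH2A1.2 columns are mixed.

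The IFIT proteins bind foreign RNA ends and sit in a cluster on chromosome 19. Of the 4 members, 3 rose, by 12.1- to 23.4-fold, and Ifit2, the most abundant in si Ctrl, did not pass the cutoffs. Ifit3b (chr19:34607970-34613401) stood at 0.321, 0.373 and 0.464 CPM in the si Ctrl samples, 6.35, 2.92 and 18.1 in si mH2A1.1 and 0.688, 0.287 and 0.403 in si mH2A1.2. The lowest si mH2A1.1 value lay well above the other 6 values, giving a log2 fold change of 4.55 ± 0.65 (23.4-fold), adjusted p = 0.0045. The CPM of Ifit2 (chr19:34550694-34576419) was 17.3, 23.7 and 20.6 in si Ctrl, 28.2, 26.4 and 45.7 in si mH2A1.1 and 17.1, 21.4 and 17.7 in si mH2A1.2. The groups did not overlap, but the difference was small beside the others, a log2 fold change of 0.70 ± 0.21 (1.63-fold), adjusted p = 0.0555. Ifit1 and Ifit3, named after their values were seen, rose with log2 fold changes of 3.60 (adjusted p = 0.00339) and 3.93 (adjusted p = 0.00641). Ifit3 and Ifit3b shared 61.8% and 55.3% of their 31-base words with other genes, mostly with each other, so reads of 50 bases could be split between them.

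ISG15 is a ubiquitin-like protein that UBA7 activates, HERC6 and TRIM25 attach and USP18 removes. Isg15 itself and Usp18 rose, and the 3 enzymes of attachment did not pass. In si Ctrl, Usp18 (chr6:121245906-121270917) measured 0.482, 0.24 and 0.232 CPM, against 14.3, 4.84 and 28.4 in si mH2A1.1 and 0.633, 0.104 and 0.107 in si mH2A1.2. From 36 counts over the 3 si Ctrl libraries the gene reached 2005 over the 3 si mH2A1.1 libraries, the strongest rise of any member: a log2 fold change of 5.63 ± 0.76 (49.4-fold), adjusted p = 0.00368. Usp18 passed the filter on low counts only because of the si mH2A1.1 samples, so being high there was a condition of its being tested. Isg15 (chr4:156199424-156200818) stood at 2.22, 1.84 and 2.01 CPM in the si Ctrl samples, 23.3, 13.5 and 48.7 in si mH2A1.1 and 4.1, 2.32 and 1.91 in si mH2A1.2. The groups did not overlap, with a log2 fold change of 3.81 ± 0.46 (14.1-fold), adjusted p = 0.00245. Trim25, the most abundant gene of this cycle by CPM, was not called: 42.5, 47 and 49.7 CPM in si Ctrl, 65.1, 56.3 and 79 in si mH2A1.1 and 38.1, 39.1 and 42 in si mH2A1.2, with a log2 fold change of 0.53 ± 0.12 (1.44-fold), adjusted p = 0.027. Uba7 and Herc6 had log2 fold changes of 1.33 (adjusted p = 0.0222) and 1.58 (adjusted p = 0.0178), above the fold cutoff but not below the cutoff for p. By fold change the modifier and its protease lay above all 3 attaching enzymes, a difference that was not tested.

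The Mx proteins are dynamin-like GTPases that trap viral nucleocapsids. Mx2 (chr16:97535308-97560900) stood at 1.21, 1.23 and 1.08 CPM in the si Ctrl samples, 11.7, 7.16 and 22.8 in si mH2A1.1 and 2.09, 1.15 and 0.94 in si mH2A1.2. Mx2 rose, with a log2 fold change of 3.56 ± 0.44 (11.8-fold), adjusted p = 0.00258. Mx1 was lower in abundance (4.25, 2.27 and 6.5 CPM in si mH2A1.1) and reached 2.56 ± 0.55 without being called, adjusted p = 0.0195.

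The immunity-related GTPases (IRG) act on pathogen vacuoles: Irgm1, Irgm2 and Igtp regulate, and Iigp1 is an effector they hold in check. The 3 regulators rose. The CPM of Irgm1 (chr11:48861968-48871683) was 16.1, 18.1 and 21.4 in si Ctrl, 55.4, 32.6 and 85.2 in si mH2A1.1 and 29.9, 26.3 and 28.9 in si mH2A1.2. Irgm1 was the most abundant of them, with a log2 fold change of 1.64 ± 0.28 (3.12-fold), adjusted p = 0.00769. For Irgm2 (chr11:58199618-58222782) the si Ctrl samples gave 4.5, 4.16 and 3.63 CPM, the si mH2A1.1 samples 29.1, 19.2 and 48.3 and the si mH2A1.2 samples 3.85, 2.45 and 2.69. Irgm2 had the largest change, a log2 fold change of 2.97 ± 0.32 (7.86-fold), adjusted p = 0.00189. Igtp rose by 1.62 (adjusted p = 0.00547). Igtp (chr11:58199556-58207591) and Irgm2 overlap on the same strand of GRCm38 and share words, so their counts are not fully separate. Iigp1 had a log2 fold change of 2.79 and was not called (adjusted p = 0.0223), with si Ctrl values of 2.38, 0.693 and 0.773 CPM spread more widely, relative to their mean, than those of the regulators. With a replicate term in the edgeR fit Iigp1 was called (adjusted p = 0.00981).

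Guanylate-binding proteins (GBP) are larger GTPases that coat and rupture pathogen vacuoles. Gbp2, Gbp3 and Gbp7 rose, and Gbp4, Gbp5 and Gbp6 were higher in every si mH2A1.1 sample than in any si Ctrl sample but were not called. With a replicate term in the edgeR fit, Gbp4, Gbp5 and Gbp6 were called (adjusted p = 0.000576, 0.00502 and 0.00529). Gbp5 passed the filter on low counts only because of the si mH2A1.1 samples. Gbp3 (chr3:142560026-142573209) stood at 0.642, 0.213 and 0.438 CPM in the si Ctrl samples, 11.3, 4.1 and 24.6 in si mH2A1.1 and 1.32, 0.339 and 0.94 in si mH2A1.2. These are 49 counts over si Ctrl against 1691 over si mH2A1.1, with a log2 fold change of 4.94 ± 0.72 (30.7-fold), adjusted p = 0.0046. The CPM of Gbp7 (chr3:142530342-142550149) was 2.22, 1.33 and 1.34 in si Ctrl, 11.1, 6.45 and 22.4 in si mH2A1.1 and 2.78, 2.01 and 1.4 in si mH2A1.2. Gbp7 had the highest mean CPM of the 6 over all 9 samples, although Gbp2 was higher in si Ctrl and si mH2A1.2 and Gbp3 slightly higher in si mH2A1.1. Gbp7 rose with a log2 fold change of 3.03 ± 0.45 (8.14-fold), adjusted p = 0.00492. In si Ctrl, Gbp2 (chr3:142620602-142638008) measured 2.3, 1.68 and 2.27 CPM, against 6, 5.41 and 10.6 in si mH2A1.1 and 4.29, 3.08 and 3.06 in si mH2A1.2. Gbp2 had a log2 fold change of 1.82 ± 0.28 (3.52-fold), adjusted p = 0.00549. Gbp4 missed the cutoff narrowly (log2 fold change 3.31, adjusted p = 0.0101), and its highest si mH2A1.1 value was in replicate 1 and not in replicate 3. Gbp5 (2.31, adjusted p = 0.0148) reached at most 49 counts in a sample, and Gbp6 (2.35, adjusted p = 0.0526) shared 74.3% of its words with other genes.

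Of the membrane factors, Bst2 rose and the 3 IFITM genes were not called. BST2, or tetherin, holds budding virions at the cell surface, and the IFITM proteins stiffen membranes against fusion with viral envelopes. In si Ctrl, Bst2 (chr8:71534255-71537456) measured 10.5, 10.2 and 8.2 CPM, against 51.5, 26.6 and 101 in si mH2A1.1 and 11.6, 13.3 and 10.7 in si mH2A1.2. The lowest si mH2A1.1 sample was above every si Ctrl sample, with a log2 fold change of 2.63 ± 0.39 (6.2-fold), adjusted p = 0.00468. Ifitm3 (chr7:141009586-141010770) stood at 96.6, 119.6 and 81.1 CPM in the si Ctrl samples, 125, 128 and 181 in si mH2A1.1 and 79.6, 120.3 and 100.4 in si mH2A1.2. Ifitm3, the member of highest mean CPM over all 9 samples although Ifitm2 was higher in si Ctrl and si mH2A1.2, did not overlap between these 2 groups but was not called, with a log2 fold change of 0.54 ± 0.20 (1.46-fold), adjusted p = 0.0989. The CPM of Ifitm2 (chr7:140954837-140955987) was 79.8, 118 and 109.9 in si Ctrl, 62.9, 72.5 and 66.3 in si mH2A1.1 and 86.4, 116 and 124 in si mH2A1.2. Ifitm2 lay wholly below si Ctrl without being called: a log2 fold change of -0.61 ± 0.17 (0.656-fold), adjusted p = 0.0426. Ifitm1 also had a negative value (-0.84 ± 0.31, adjusted p = 0.105) with overlapping groups. Ifitm2 shared 55.5% and Ifitm3 20.5% of their words with other genes, so both are uncertain.

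RSAD2 (viperin) makes a chain-terminating nucleotide, and CMPK2, encoded beside it on chromosome 12, is a nucleotide kinase. Both rose. For Rsad2 (chr12:26442746-26456452) the si Ctrl samples gave 2.84, 2.02 and 1.75 CPM, the si mH2A1.1 samples 13.4, 7.36 and 23.9 and the si mH2A1.2 samples 0.853, 1.07 and 0.564. Rsad2 had a log2 fold change of 2.75 ± 0.40 (6.75-fold), adjusted p = 0.00461. Cmpk2 (chr12:26469204-26479837) stood at 0.268, 0.213 and 0 CPM in the si Ctrl samples, 3.46, 1.6 and 7.56 in si mH2A1.1 and 0.0551, 0.157 and 0.134 in si mH2A1.2. In si Ctrl replicate 3 no read was counted, which allows up to 0.0773 CPM, and the gene reached 140, 65 and 328 counts in si mH2A1.1, with a log2 fold change of 4.70 ± 0.76 (26-fold), adjusted p = 0.00652. Cmpk2 also passed the filter on low counts only because of the si mH2A1.1 samples. The helicase gene Ddx60 rose by 3.96 (adjusted p = 0.00613). Isg20, an RNA exonuclease, had lower values with si mH2A1.1: 8.16, 10.6 and 9.28 CPM in si Ctrl, 4.94, 6.25 and 6.73 in si mH2A1.1 and 6.58, 9.24 and 12 in si mH2A1.2. The first 2 of these groups did not overlap, but Isg20 was not called, with a log2 fold change of -0.64 ± 0.22 (0.64-fold), adjusted p = 0.0814.

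All 4 genes of the antiviral PARP group rose. PARP9 forms a ubiquitin ligase with DTX3L, PARP12 and PARP14 transfer single ADP-ribose units, and PARP9 and PARP14 carry macrodomains, the fold that also gives macroH2A its name. Parp14 (chr16:35832874-35871544) stood at 3.48, 4.16 and 3.92 CPM in the si Ctrl samples, 25.1, 15.2 and 46 in si mH2A1.1 and 7.02, 6.47 and 5.77 in si mH2A1.2. Parp14 had a log2 fold change of 2.90 ± 0.34 (7.46-fold), adjusted p = 0.00236. The CPM of Parp12 (chr6:39086410-39118349) was 20.5, 21.1 and 17.4 in si Ctrl, 54.8, 31.9 and 71.8 in si mH2A1.1 and 24.9, 25.8 and 21.8 in si mH2A1.2. Parp12, the most abundant of the 4 by CPM, rose less, with a log2 fold change of 1.43 ± 0.24 (2.69-fold), adjusted p = 0.00738. Parp9 (1.66, adjusted p = 0.00645) and Dtx3l (1.28, adjusted p = 0.0075) rose as well. Parp9 (chr16:35938470-35972605) and Dtx3l (chr16:35926511-35939151) overlap at their 5′ ends on opposite strands, and whether counting used the strand is not given in the sources used here, so reads in the overlap cannot be assigned.

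Among nuclear and cytosolic factors, Sp100, Samd9l, Phf11d and Ifi35 rose and Ifi204, Trim30a and Xaf1 did not pass. In si Ctrl, Phf11d (chr14:59347407-59365470) measured 0.535, 0.56 and 0.464 CPM, against 8.12, 4.37 and 23.8 in si mH2A1.1 and 0.964, 1.02 and 0.806 in si mH2A1.2. Phf11d had the largest change of the group, a log2 fold change of 4.54 ± 0.58 (23.2-fold), adjusted p = 0.00306. For Samd9l (chr6:3372257-3399572) the si Ctrl samples gave 10.4, 10.7 and 11 CPM, the si mH2A1.1 samples 61.2, 41 and 101 and the si mH2A1.2 samples 26.8, 17.8 and 18.5. SAMD9L restrains viral translation, and its gene rose with a log2 fold change of 2.66 ± 0.30 (6.33-fold), adjusted p = 0.00218. Ifi204, a DNA-binding protein that is also known to be induced as myoblasts differentiate, was already at 34.1, 34.5 and 46.1 CPM in si Ctrl. Its si mH2A1.2 values were 46, 45.9 and 66. Its si mH2A1.1 values of 54, 44.1 and 81.6 overlapped those of si Ctrl, with a log2 fold change of 0.65 ± 0.23 (1.57-fold), adjusted p = 0.0931. The nuclear body gene Sp100 (2.86, adjusted p = 0.00848) and Ifi35 (1.15, adjusted p = 0.00591) rose. Xaf1, whose product binds the caspase inhibitor XIAP, had 1.96 (adjusted p = 0.0149) and Trim30a 3.26 (adjusted p = 0.03), each with wholly separate groups but outside the cutoff for p. Both were called with a replicate term in the edgeR fit (adjusted p = 0.00985 and 0.00933).

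Of the remaining 6 members, Ifi27, Ifi44, Lgals3bp and Lgals9 rose. Ifi44 (chr3:151730922-151749960) stood at 0.428, 0.586 and 0.541 CPM in the si Ctrl samples, 5.09, 2.47 and 20 in si mH2A1.1 and 1.18, 0.705 and 0.671 in si mH2A1.2. Ifi44 went from at most 22 to at least 100 counts, with a log2 fold change of 4.14 ± 0.71 (17.6-fold), adjusted p = 0.0084. LGALS3BP is a secreted glycoprotein that binds galectins, and LGALS9 is itself a galectin: their genes rose by 3.16 (adjusted p = 0.00227) and 1.26 (adjusted p = 0.00269). Ifi27 rose by 1.21 (adjusted p = 0.00415), and Rtp4, a receptor chaperone, was not called at 2.13 (adjusted p = 0.0137). Rtp4 was called with a replicate term in the edgeR fit (adjusted p = 0.00644). The CPM of Tor3a (chr1:156653617-156674356) was 75.9, 77.9 and 74.6 in si Ctrl, 89.5, 98 and 102 in si mH2A1.1 and 91.3, 75.2 and 77.3 in si mH2A1.2. Tor3a, a torsin ATPase, had the smallest change, a log2 fold change of 0.34 ± 0.10 (1.27-fold), adjusted p = 0.0489.

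**Figure D3:**
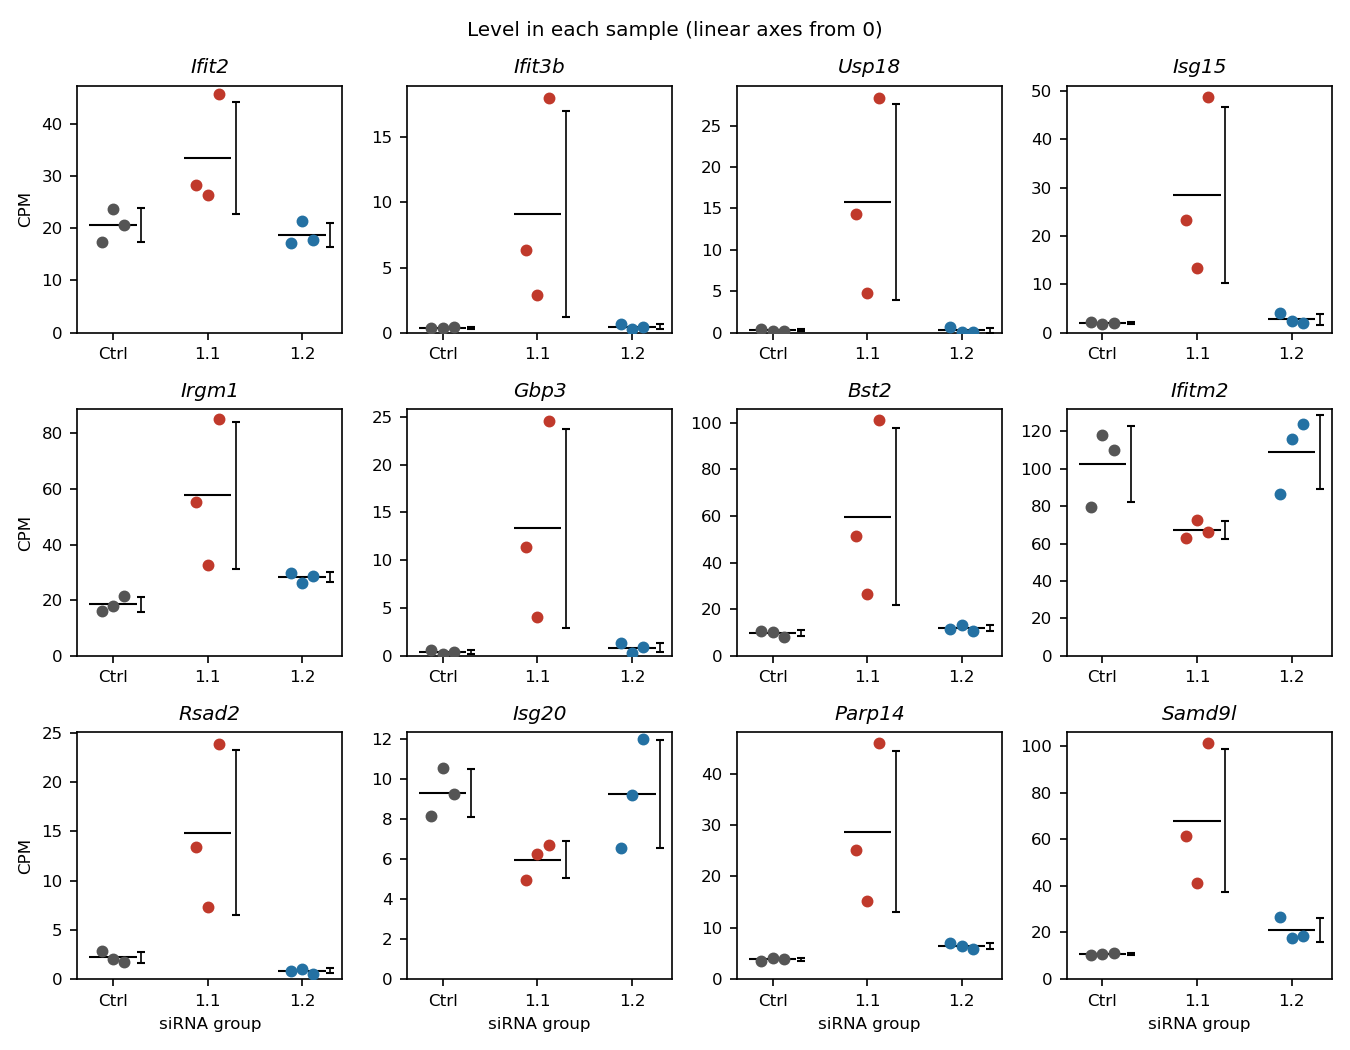
CPM in each sample for 12 members, 1 panel each, on linear axes that start at 0. Points are samples in the order of replicates 1, 2 and 3, horizontal lines are group means and bars beside them are 1 SD (n = 3). In the 9 panels of called members and in Ifit2 every si mH2A1.1 point is above every si Ctrl point; in Ifitm2 and Isg20 every one is below.

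The si mH2A1.1 samples differed among themselves in the same order for nearly all members. Replicate 3 was the highest of the 3 in 42 of the 46 members and replicate 2 the lowest in 41, where over all genes tested replicate 3 was highest in 27.4% and replicate 2 lowest in 34.9%. The summed CPM of the members was 628.7, 695.8 and 650.2 in si Ctrl, 1422, 1072 and 2220 in si mH2A1.1 and 747.2, 753.6 and 737.2 in si mH2A1.2. The si mH2A1.1 group had both the highest sums and the widest spread. For Isg15 the 3 values ran from 13.5 to 48.7 CPM, wider than the 1.84 to 2.22 of si Ctrl. H2afy, counted over both isoforms together, did not follow that order, at 38.8, 30 and 30.9 CPM. Such counts do not measure the depth of the macroH2A1.1 knockdown, and a link between that depth and the members' order was not tested. Without si mH2A1.1 replicate 2, edgeR called 34 members higher than si Ctrl, and 357 of all 20096 genes tested.

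The members with low levels had the larger fold changes. Per kilobase of exon, the median level of the members was 1.14 CPM in si Ctrl, 5.73 in si mH2A1.1 and 1.25 in si mH2A1.2. The si Ctrl order was led by Ifitm2 (157 CPM per kb), Ifitm3 (146), Ifi27 (36.5), Tor3a (19.6) and Lgals9 (14.8), and ended with Cmpk2 (0.0385) and Gbp5 (0.0238). To avoid using the si Ctrl values on both axes, the level in si mH2A1.2 was set against the log2 fold change of si mH2A1.1 against si Ctrl: Pearson's r was -0.692 and Spearman's rho -0.704 across the 46 members, and -0.164 and -0.086 across the 19541 genes tested that have a length. Genes of low level such as Usp18, Gbp5 and Cmpk2 could enter only by being high in si mH2A1.1. Across the 43 members that pass the filter without the si mH2A1.1 samples the values were -0.683 and -0.698, and across the 18584 such genes with a length -0.06 and -0.024. These are correlations across genes of the same 9 libraries, which are not independent replicates. Samples of si Ctrl and si mH2A1.2 with the same number deviated together (r = 0.331, 0.291 and 0.196), so shared deviations can still enter both axes. Lgals3bp, Bst2 and Isg15 combined a level of at least 3.67 CPM per kb with changes of 3.16, 2.63 and 3.81.

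**Figure D4:**
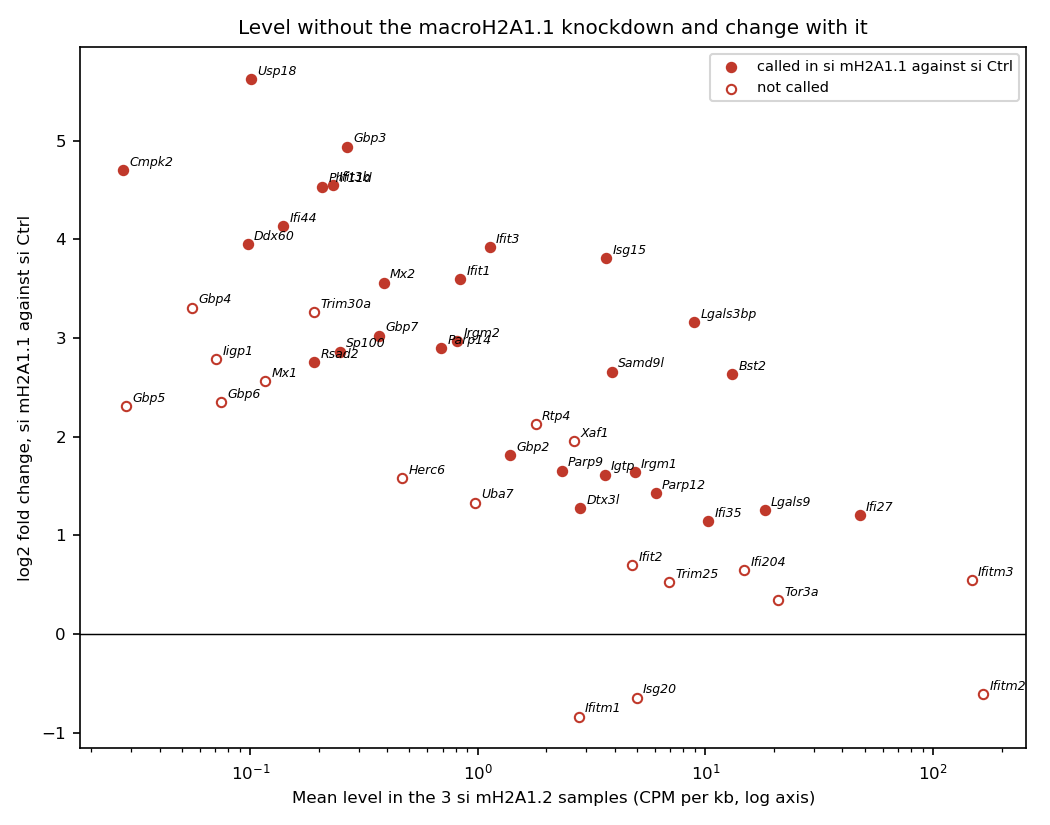
Level and change of the 46 members. The horizontal axis is the mean level in the 3 si mH2A1.2 samples in CPM per kilobase of exon (log axis), the vertical axis the log2 fold change of si mH2A1.1 against si Ctrl, and filled points are called members. Gbp3 (4.94) and Usp18 (5.63) lie at the top left, Usp18 being 1 of the 3 members that passed the filter only through si mH2A1.1, and Ifitm2 (-0.61) at the bottom right.

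The second question was whether the same was seen with si mH2A1.2. With si mH2A1.2, none of the 46 members was called in either direction by edgeR, and none by DESeq2 on all samples, where 0.128% of all genes were called higher and 0.0512% lower in edgeR. At an unadjusted p under 0.05 there were 8 of the 46 members in this edgeR fit, a share close to the 15.9% of all genes. The 8 were 6 higher (Samd9l, Gbp2, Lgals3bp, Ifi27, Irgm1 and Parp14) and 2 lower (Rsad2 and Iigp1). That share depended on the fit. DESeq2 gave 10 members, against 8.58% of its 37466 genes, and edgeR on only the 2 groups gave 14 of 43, against 16.5%. With a sample left out, edgeR gave 3 to 12 members, against 12.7% to 17% of all genes. The smallest adjusted p was 0.119 in edgeR (Samd9l) and 0.0125 in DESeq2 (Rsad2), where Samd9l had 0.0131; with DESeq2 both changes were beyond the fold cutoff and just outside the cutoff for p. The median log2 fold change was 0.23. With a replicate term in the edgeR fit, 14 members had an unadjusted p under 0.05, against 20.8% of all genes, and 0 were called. The smallest adjusted p of a member in that fit was 0.0382 (Ifi204). The groups were wholly apart upward in 13 members and downward in 4, against 11.7% and 10.8% of all genes. DESeq2 called 2 members higher and 1 lower when si mH2A1.1 replicate 2 or replicate 3 was left out. Over all genes it called 236 higher and 142 lower without replicate 2, and 211 and 133 without replicate 3.

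In the fit without a replicate term, the 3 members with the lowest p in this comparison were Samd9l, Rsad2 and Gbp2, whose values in each sample are given above. With that term in edgeR, their adjusted p was 0.0755, 0.138 and 0.131. The values that follow are without it. Samd9l was higher in every si mH2A1.2 sample than in any si Ctrl sample, with a log2 fold change of 0.97 ± 0.29 (1.96-fold), adjusted p = 0.119, which is not a call. Rsad2 lay below, at 0.853, 1.07 and 0.564 CPM against 2.84, 2.02 and 1.75, with a log2 fold change of -1.41 ± 0.44 (0.378-fold), adjusted p = 0.14. For Gbp2 the result was a log2 fold change of 0.74 ± 0.28 (1.67-fold), adjusted p = 0.232. Iigp1 had the most negative value, a log2 fold change of -1.63 ± 0.71 (0.323-fold), adjusted p = 0.3, and Parp14, Irgm1 and Lgals3bp had 0.74, 0.62 and 0.87. The si Ctrl samples serve as reference for both knockdowns. Side by side, Rsad2 had 2.75 after macroH2A1.1 knockdown and -1.41 after macroH2A1.2 knockdown, Iigp1 2.79 and -1.63, and Samd9l 2.66 and 0.97. None of these was called with si mH2A1.2, and Iigp1 was not called with si mH2A1.1 either. Isg15 had a value of 0.45 ± 0.45 with si mH2A1.2 and Ifit1 -0.31 ± 0.48, with overlapping groups for both.

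**Figure D5:**
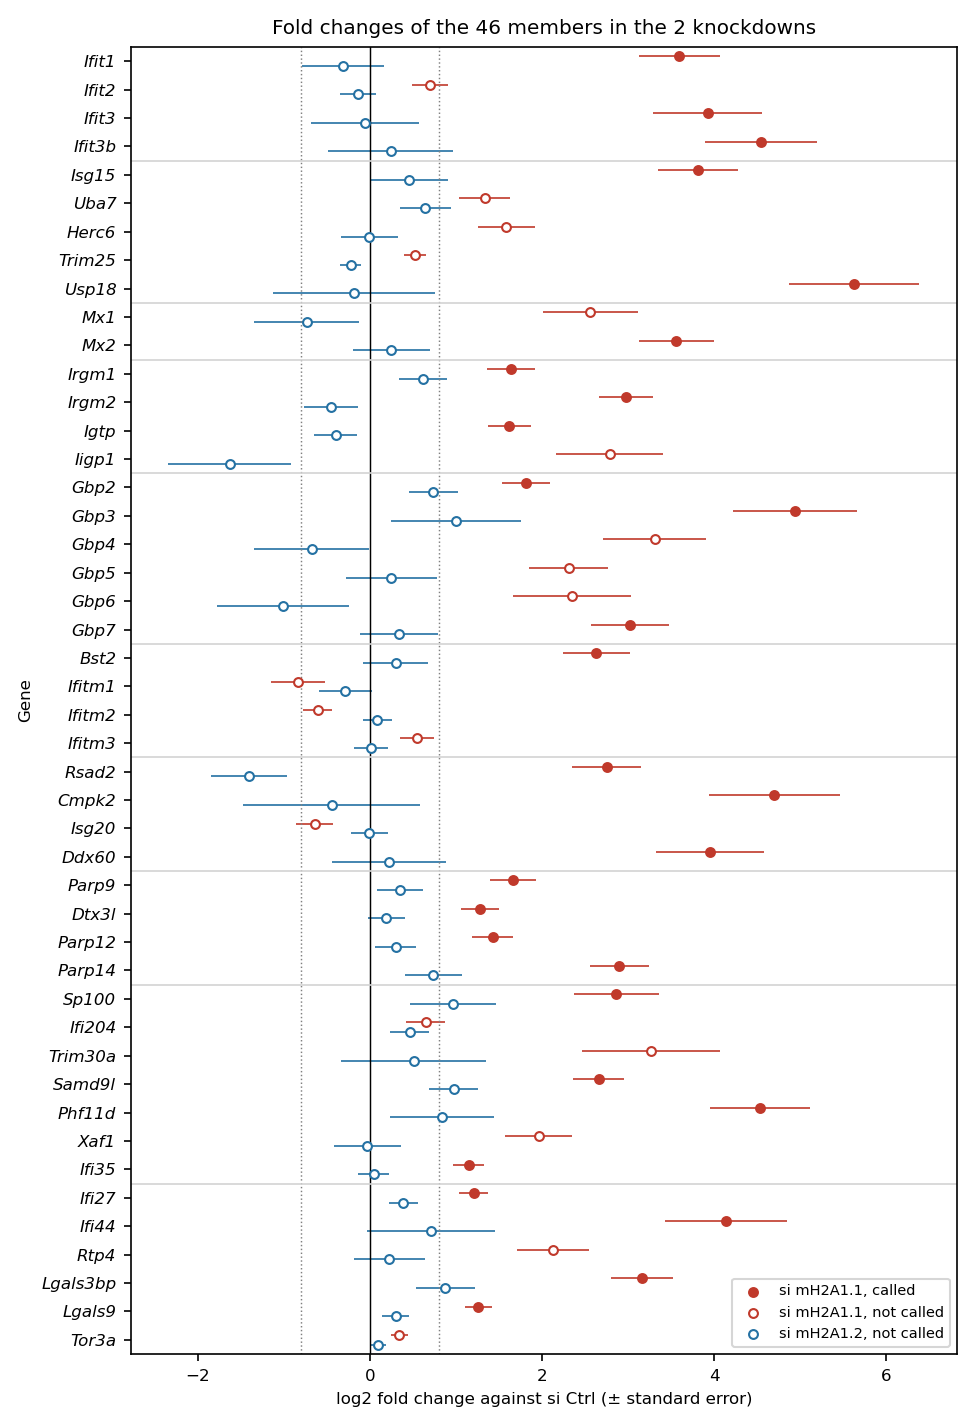
Log2 fold change against si Ctrl of the 46 members in both knockdowns, with bars of 1 standard error from edgeR. Red is si mH2A1.1 and blue si mH2A1.2, filled points are called, and dotted lines mark a change of 0.8. The 28 filled points are all red and to the right of the line, and the blue points lie between -1.63 and 1.00.

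The third comparison set the knockdowns directly against each other. Of the 46 members, 31 (67.4%) were higher in si mH2A1.1 than in si mH2A1.2 and none was lower, against 3.54% and 2.84% of all genes, with a median of 2.04. In 40 members the groups were wholly apart upward and in 1 (Ifitm2) downward, against 20.3% and 19.4% of all genes, and 44 had an unadjusted p under 0.05, as did 36.2% of all genes. Usp18 (5.81, adjusted p = 0.00102), Cmpk2 (5.14, adjusted p = 0.00211) and Iigp1 (4.42, adjusted p = 0.0024) had the largest values. Usp18 and Cmpk2, like Gbp5, passed the filter on low counts only because of the si mH2A1.1 samples. Being high there was a condition of their being tested. Rsad2 (4.16, adjusted p = 0.000388) exceeded its value against si Ctrl. Irgm1 (1.03, adjusted p = 0.0232), Gbp2 (1.08, adjusted p = 0.0193) and Sp100 (1.90, adjusted p = 0.0171), called against si Ctrl, were not called here. Ifi204 had 0.19 (adjusted p = 0.602). The count of 31 was 18 without si mH2A1.1 replicate 1 and 20 without si mH2A1.1 replicate 3. It was 7 without si mH2A1.2 replicate 2 and 8 without si mH2A1.2 replicate 3. Calls over all genes fell as well, from 691 higher to 336, 331, 255 and 331 in these fits. With each sample left out in turn, 40 to 44 members had an unadjusted p under 0.05, as did 28% to 36.7% of all genes. DESeq2 then called 30 to 40 members higher, and 705 to 1190 of all genes. Ifitm2 had -0.69 (adjusted p = 0.0154). Of the leukocyte markers, Cd68 was 3.03-fold higher in si mH2A1.1 than in si mH2A1.2 (adjusted p = 0.00231). In mean CPM, Itgam, Lyz2 and the endothelial Cdh5 were also higher, and Ptprc, Adgre1, Csf1r and the endothelial Pecam1 and Kdr were lower. Of the 7 myotube markers, 2 were called higher: Ckm, the muscle creatine kinase gene (2.21-fold, adjusted p = 0.00241), and Des, the gene of the muscle intermediate filament desmin (2.1-fold, adjusted p = 0.000844). By mean CPM, Tnnt3 and Ttn were also higher in si mH2A1.1 than in si mH2A1.2, and Myog, Myh3 and Acta1 were lower. Myog measured 442, 483.9 and 336.7 CPM in si mH2A1.1 and 556.2, 566.6 and 614.5 in si mH2A1.2. The part of these markers in the members' values was not tested.

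The pathway known to drive such genes was examined in 26 further genes, of which 15 were tested. None of the 10 interferon genes examined passed the filter on low counts: the highest count of any in a library was 6, for Ifng, and Ifnb1 had 3, 0 and 1 counts in si mH2A1.1 and 0 in the other 6 libraries. The 10 ligands together came to 0.18 to 0.321 CPM in si Ctrl, 0.115 to 0.321 in si mH2A1.1 and 0 to 0.11 in si mH2A1.2. In si mH2A1.1 against si Ctrl, 1 of the 15 rose and none fell. The gene that rose was Irf9, the DNA-binding component of the ISRE-binding complex, which measured 15.7, 12.7 and 12.8 CPM in si Ctrl and 44.1, 30.1 and 59.5 in si mH2A1.1, with a log2 fold change of 1.70 ± 0.25 (3.25-fold), adjusted p = 0.00453. The si mH2A1.1 samples all lay above the si Ctrl samples and followed the replicate order of the members. Irf9 was not called without any one of the si Ctrl samples or without si mH2A1.1 replicate 1 or 3. Stat2, another component of the complex, had a log2 fold change of 0.36 (adjusted p = 0.155). No receptor, kinase or inhibitor was called: Ifnar1 had 0.03 ± 0.10, Jak1 -0.07 ± 0.11, Tyk2 -0.45 (adjusted p = 0.0416) and Socs3 -0.82 (adjusted p = 0.0611). Among the receptors, Il10rb lay wholly above si Ctrl (0.56 ± 0.11, adjusted p = 0.0131) and Ifngr2 wholly below (-0.58 ± 0.16, adjusted p = 0.0403). Of the 15, 8 had an unadjusted p under 0.05 in this comparison, against 29.6% of all genes. In si mH2A1.2 against si Ctrl none of the 15 was called and 4 had an unadjusted p under 0.05, against 15.9% of all genes. DESeq2 called none either. In si mH2A1.1 against si mH2A1.2, 11 of the 15 had an unadjusted p under 0.05, against 36.2% of all genes. There, Stat2 (0.81, adjusted p = 0.00642) and Irf9 (1.50, adjusted p = 0.00268) were called. The number of calls was 0 without si mH2A1.1 replicate 1, si mH2A1.2 replicate 2 or si mH2A1.2 replicate 3, and 1 without si Ctrl replicate 2, si mH2A1.1 replicate 3 or si mH2A1.2 replicate 1.

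Counting limits apply to a minority of members. In 28 of the 46, less than 10% of the 31-base words of the transcripts occur in another gene, and 19 of the 28 members that rose with si mH2A1.1 are among them. Shares above 50% were found in Ifit3, Ifit3b, Ifitm2 and Gbp6, and 34.6% in Ifi204.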

How the data were processed

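PolyA-selected RNA of day 4 C2C12 cells was sequenced as single reads of about 50 bases. Per the labels and the study's methods, the authors quantified transcripts with Salmon in quasi-mapping mode on GRCm38 (mm10) and imported them with tximport for DESeq2. A pair of tables was deposited: estimated counts per gene, given as whole numbers and used here as deposited, and a normalized signal, which equals the deposited counts divided by DESeq2 size factors and was used only for that check. Identifiers were matched to GENCODE M21 symbols; the annotation release of the table and the strand setting are not given in the sources used here.

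Genes were filtered with filterByExpr (19545 kept), scaled by TMM and fitted in edgeR 4.0.16 (R 4.3.3; quasi-likelihood test in its legacy form, 3 groups, 9 samples, Benjamini-Hochberg adjustment over all genes). Errors are standard errors. CPM used TMM-scaled library sizes. DESeq2 1.42.0 was the alternative, with other scalings, filters, cutoffs, a replicate block and each sample left out. Scripts were tested on simulated data.

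Members and lists were chosen with earlier results of these data known. In the pathway list, 1 gene is not reported here. Genes given in every sample were, per role, the one of highest mean CPM over the 9 samples and the one of largest absolute change with si mH2A1.1, plus any called lower or called with si mH2A1.2 or, failing that, the 3 of lowest p there; others were picked after their values were seen. Promoter windows came from RefSeq (GRCm38.p6). With 3 samples against 3, an exact permutation test of a single gene cannot go below 0.1, and none was used. Samples of si Ctrl and si mH2A1.2 with the same replicate number deviated together (r = 0.331, 0.291 and 0.196), so these numbers were taken to pair them; the other group pairs fell at or below 0.116 and not all above 0.1. No columns of the authors' own comparisons were used.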

Additional observations from a re-analysis of the deposited data

How the results depend on the processing

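In si mH2A1.1 against si Ctrl, 28 members were called higher in the reported fit. The count was 12 when the fit held only the 2 groups compared, and 0 to 39 with a sample left out, 0 to 34 in edgeR and 33 to 39 in DESeq2, an alternative chosen after seeing the data; the cause was not tested, but such fits hold fewer samples. Over all genes, calls higher with a sample left out ran from 26 to 357 in edgeR and from 360 to 771 in DESeq2. The count of members was 37 with DESeq2, 28 with the newer quasi-likelihood form and 29 with DESeq2 size factors. It was 37 without the filter on low counts, 25 of the 38 members with at least 10 counts in every sample and 37 at an adjusted p of 0.05 or less. The same settings called 635, 305, 261, 512, 198 and 734 of all genes higher, in that order. No member was called lower in that comparison in any of these fits, and no log2 fold change of a member changed sign; over all members and alternatives a call was lost in 160 cases and gained in 44.

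With the replicate block the count was 35 in si mH2A1.1 against si Ctrl, the 7 added members being Gbp4, Gbp5, Gbp6, Iigp1, Rtp4, Trim30a and Xaf1, with 489 of all genes called higher against 256 without it. It was 33 against 31 in si mH2A1.1 against si mH2A1.2, with 1000 of all genes called higher against 691. In these comparisons the samples were taken to share only a number, although in 18 of 18 cases a sample correlated best with its own number in another group and the sample names run consecutively within a number; in si mH2A1.2 against si Ctrl the block changed no call (0). In si mH2A1.2 against si Ctrl, 0 to 2 members were called higher and 0 to 1 lower with a sample left out, the calls above 0 coming from DESeq2 alone. In si mH2A1.1 against si mH2A1.2, 7 to 40 were called higher and 0 to 2 lower with a sample left out, and 23 were higher with only the 2 groups. Over all genes the ranges were 255 to 1190 higher and 250 to 954 lower, and 502 were higher with only the 2 groups. Interferon pathway genes called ranged from 0 to 1 in si mH2A1.1 against si Ctrl and from 0 to 2 in si mH2A1.1 against si mH2A1.2 with a sample left out, and 1 was called in the latter with only the 2 groups. Depth limits members near 3 counts, such as Gbp5 and Cmpk2 in si Ctrl.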
